A study of Mus musculus with 24 samples.

Results

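Hair follicle stem cells (HFSC) of the tail skin of 2-month-old mice were compared directly with nLRC, the fast-cycling stem cells of the epidermis between the follicles. All libraries titled HFSC or nLRC at 2 months were taken, 3 of each, which is 6 of the 24 libraries of the study. The remaining libraries cover the slow-cycling, label-retaining epidermal cells (LRC) and the same 3 kinds of cell in older mice. Every mouse was of strain C57BL/6J and carried both K5-tTA and pTRE H2B-GFP, in HFSC and nLRC alike. K5-tTA is a tetracycline-controlled activator under the promoter of keratin 5, so the labelled histone is made in basal keratinocytes. Every mouse was also fed doxycycline for 2 weeks, which stops the labelled histone being made, and a cell that divides then dilutes its label. Cells were freed from the tail epidermis with trypsin, stained with antibodies that the labels do not name, and sorted by flow cytometry. Total RNA was made into strand-specific libraries with a kit for small inputs. The labels do not say whether replicates came from separate mice, so p-values measure the spread between libraries, which may be partly technical.

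The bulge is the lower part of the permanent hair follicle, where stem cells rest between hair cycles and rebuild the follicle when a cycle starts. Transcription factors such as LHX2, SOX9, TCF7L1 and NFATC1 keep these cells in place and at rest. BMP signals and Wnt inhibitors are known to hold the resting state, and Wnt, Hedgehog and FGF signals are known to act when growth begins. The epidermis between the follicles renews itself all the time from basal cells rich in keratins 5 and 14. Its cells switch to keratins 1 and 10 as they move up, and in tail skin it is patterned into scale and interscale regions.

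The 6 libraries held 8421582 to 13292358 gene reads, counted over exons and introns together. HFSC replicate 2 was the smallest and stood apart: 34.0% of its gene reads were exonic, against 52.7 to 58.3% in the other 5, and its 10 most abundant genes took 50.5% of reads, against 34.1 to 44.3%. The summed bulge markers were higher in the libraries labelled HFSC and the summed epidermal markers in those labelled nLRC, though single epidermal markers were mixed. The summed level of 8 bulge markers was 4268 to 4726 CPM (gene reads scaled to one library total with TMM factors) in HFSC and 324 to 484 CPM in nLRC. The summed level of 5 basal epidermal markers was 6502 to 9737 CPM in HFSC and 18886 to 26940 CPM in nLRC. Of these, 3 were called lower in HFSC and 1, Thbs1, higher. The summed level of 4 suprabasal epidermal markers, of cells that have left the basal layer, was 228 to 270 CPM in HFSC and 2290 to 2556 CPM in nLRC. Of these, 3 were called lower in HFSC and 1, Sbsn, higher. Markers of other cells were unequal too. The summed level of 10 endothelial markers was 104, 273 and 185 CPM in HFSC replicates 1, 2 and 3 and 20.2 to 26.3 CPM in nLRC. Pecam1 was the largest part of it and made up most of the nLRC sum. Of 10 fibroblast markers the sum was 32.2 to 77.9 CPM in HFSC and 4.51 to 7.89 CPM in nLRC, with Lum, Pdgfrb and Dpt at 3 reads or fewer in every library. Vim, a gene of mesenchymal and endothelial cells, was its largest part over the 6 libraries. Of 10 melanocyte markers the sum was 100, 219 and 98.2 CPM in HFSC replicates 1, 2 and 3 and 30.9 to 48.1 CPM in nLRC. Only Mitf, the largest part of it, was called among the 3 tested. T cell, Langerhans and myeloid, erythroid and skeletal muscle sums stayed at or below 5.61 CPM in all 6.

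**Figure D1:**
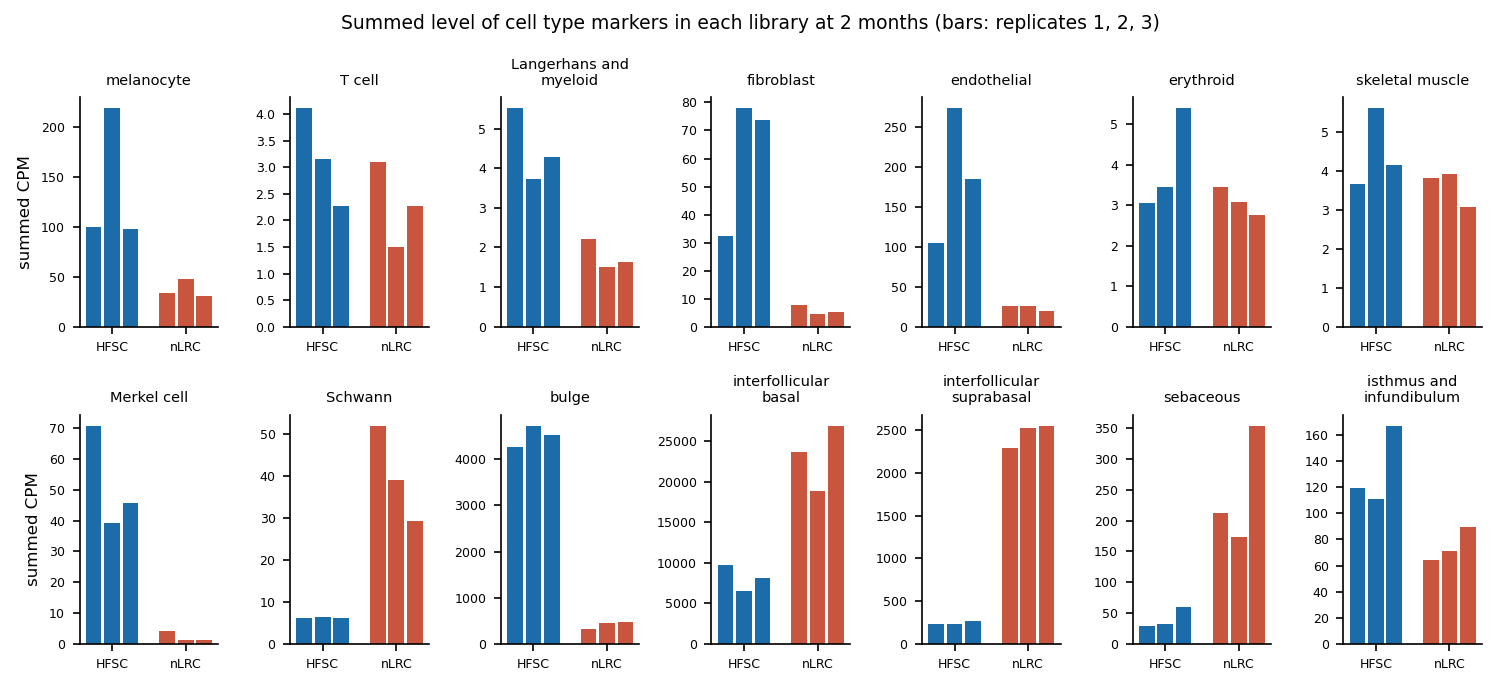
Summed CPM of 14 lists of cell type markers (one panel each, linear axes from 0 that differ between panels) in the 6 libraries, with one bar per replicate. Bulge, isthmus and infundibulum, endothelial, fibroblast, melanocyte, Merkel cell, and Langerhans and myeloid sums were higher in all 3 HFSC libraries. Both interfollicular sums and the sebaceous and Schwann sums were higher in all 3 nLRC libraries, and the other 3 overlapped. Some sums rest on few genes. The Merkel cell sum in HFSC was mostly Krt8 and the Schwann sum in nLRC mostly Mbp. Of the Langerhans and myeloid markers only Cd68 was high enough to test.

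A large share of the transcriptome differed between the stem cells of the follicle and those of the epidermis at 2 months. Of 13819 genes tested with edgeR's quasi-likelihood test, 3238 (23.4%) passed a Benjamini-Hochberg adjusted p of 0.05. Among them 1881 genes (13.6%) were higher in HFSC and 1357 (9.82%) were lower. With a term for the replicate number, which may pair the libraries, 2448 (17.7%) were higher and 2251 (16.3%) lower. Without HFSC replicate 2, 1534 of 14284 genes were called higher and 931 lower. Counts of list members below are to be read beside the shares over all genes, each in its own fit. At least 4-fold differences were more often higher (798 genes) than lower (366 genes). The highest CPM of one group lay below the lowest of the other for 5636 genes (40.8%). In 113 of the genes called higher every nLRC library had 3 reads or fewer, and the reverse held for 41 of the genes called lower. In a bulk library fewer cells of a type and less RNA per cell cannot be told apart. With exon reads alone, 1583 of the 1881 and 1148 of the 1357 genes were called again in the same direction. Replicates 1 and 2 belong to one set of libraries named in the files and replicate 3 to another, with each cell type in both. In the first set alone 1714 genes were called, and among genes described below Krt5, Erbb3, Tap1, Zfp36, Rplp1 and Rplp0 then missed the threshold, in the same direction (adjusted p 0.0646 to 0.359). In a fit of all 24 libraries 1548 genes were called, and Fgf18, Scd1, Tead4, Racgap1, Tap1, Wnt7a, Krt84 and Krt36 missed it (adjusted p 0.0564 to 0.129). Lgr6, described below, also missed it in that fit.

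**Figure D2:**
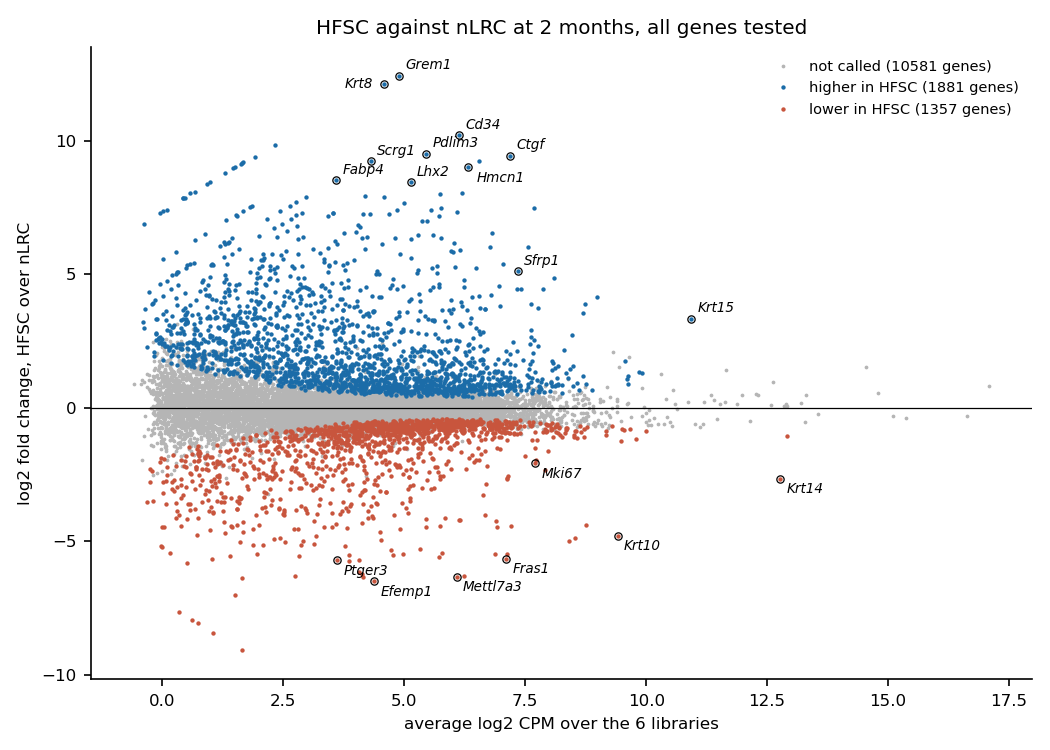
Log2 fold change of HFSC over nLRC against average log2 CPM for the 13819 genes tested, with the 1881 called higher, the 1357 called lower and the 10581 not called in 3 colours. Points in slanting rows at the upper and lower left are genes with 0 reads in one group, whose fitted fold depends on the small count added by the fit.

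The transcription factors that define the bulge were far higher in HFSC than in nLRC. Throughout, CPM values are in the order of replicates 1, 2 and 3, and log2 fold changes are HFSC over nLRC ± SE with edgeR's adjusted p. Lhx2, a LIM-homeobox factor that maintains bulge stem cells (GRCm38 chr2:38339281-38369733, plus strand), was at 64.3, 76.9 and 68.3 CPM in HFSC and at 0.0886, 0.226 and 0.243 CPM in nLRC, 7 reads in all. The ratio of CPM-scaled reads was 362 (95% exact counting interval 176 to 902), with adjusted p = 2.9e-07. Sox9 (chr11:112782224-112787760, plus strand), which marks the earliest follicle stem cells, was at 295, 309 and 369.9 CPM in HFSC against 14.3, 13.5 and 16.3 in nLRC (log2 fold change 4.47 ± 0.19, adjusted p = 6.73e-07). Both genes were tight within groups and far apart between them. Tcf7l1, a repressor of Wnt targets, stood at 162, 162 and 121 CPM against 18, 18.4 and 13.5 (log2 fold change 3.16 ± 0.19, adjusted p = 4.48e-06), with 25.6% of its gene reads in exons. Nfatc1, a factor that keeps bulge cells quiescent, stood at 152, 219.8 and 147 CPM against 43.9, 36.9 and 32.9 (log2 fold change 2.19 ± 0.20, adjusted p = 5.84e-05). Their nLRC levels were low but clearly above 0, in contrast to Lhx2. Tbx1, a T-box factor of the bulge, was at 92.6, 93.7 and 102 CPM against 0.886, 0.376 and 1.95 (log2 fold change 6.48 ± 0.38, adjusted p = 4.34e-06), and Foxc1, a forkhead factor of bulge quiescence, was at 23, 28.2 and 22.2 CPM against 2.04, 1.81 and 1.95 (log2 fold change 3.66 ± 0.22, adjusted p = 3.39e-06).

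Of 12 listed bulge transcription factors, 11 rose in HFSC and 1 fell (13.6% and 9.82% of all genes tested), with a median log2 fold change of 2.67 against -0.01 over all genes tested. The exception, singled out after its values were seen, was Gata3, a factor of the inner root sheath and of epidermal differentiation. It was at 28.8, 30.6 and 36.4 CPM in HFSC and 75.7, 70.6 and 60.2 CPM in nLRC (log2 fold change -1.11 ± 0.16, adjusted p = 0.000871). These lists were drawn up with earlier results of these data known, so their counts are descriptions.

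Surface and secreted bulge proteins differed just as widely. Cd34, a sialomucin in common use to sort bulge cells (chr1:194938819-194961279, plus strand), was at 183, 131 and 109.7 CPM in HFSC and at 0.266, 0 and 0.0811 CPM in nLRC, where it had 4 reads in all. Because the antibodies are not named, Cd34 may be part of the gate, so its values are a description and it is left out of the count of this list. Itga6, the other protein in common use for this sort, overlapped between groups, at 446, 457 and 435 CPM against 556, 389.7 and 412. Lgr5, an R-spondin receptor of cycling epithelial stem cells, was at 65.8, 94 and 84.8 CPM against 1.68, 0 and 0.325 (log2 fold change 6.98 ± 0.67, adjusted p = 0.000239). One nLRC library held more of it than the other 2, and all 3 lay far below HFSC. Ptprk, a receptor phosphatase, was at 248, 319.7 and 199.8 CPM against 4.7, 8.35 and 5.19 (log2 fold change 5.39 ± 0.29, adjusted p = 2.1e-06), with 34% of its gene reads in exons. Itgb8, the integrin subunit that activates latent TGF-beta, was at 70.2, 69.4 and 71.7 CPM against 7.18, 8.65 and 5.76 (log2 fold change 3.29 ± 0.18, adjusted p = 2.49e-06). Of the 13 other listed proteins of this kind, 10 rose, none fell and 3 did not pass the test.

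**Figure D3:**
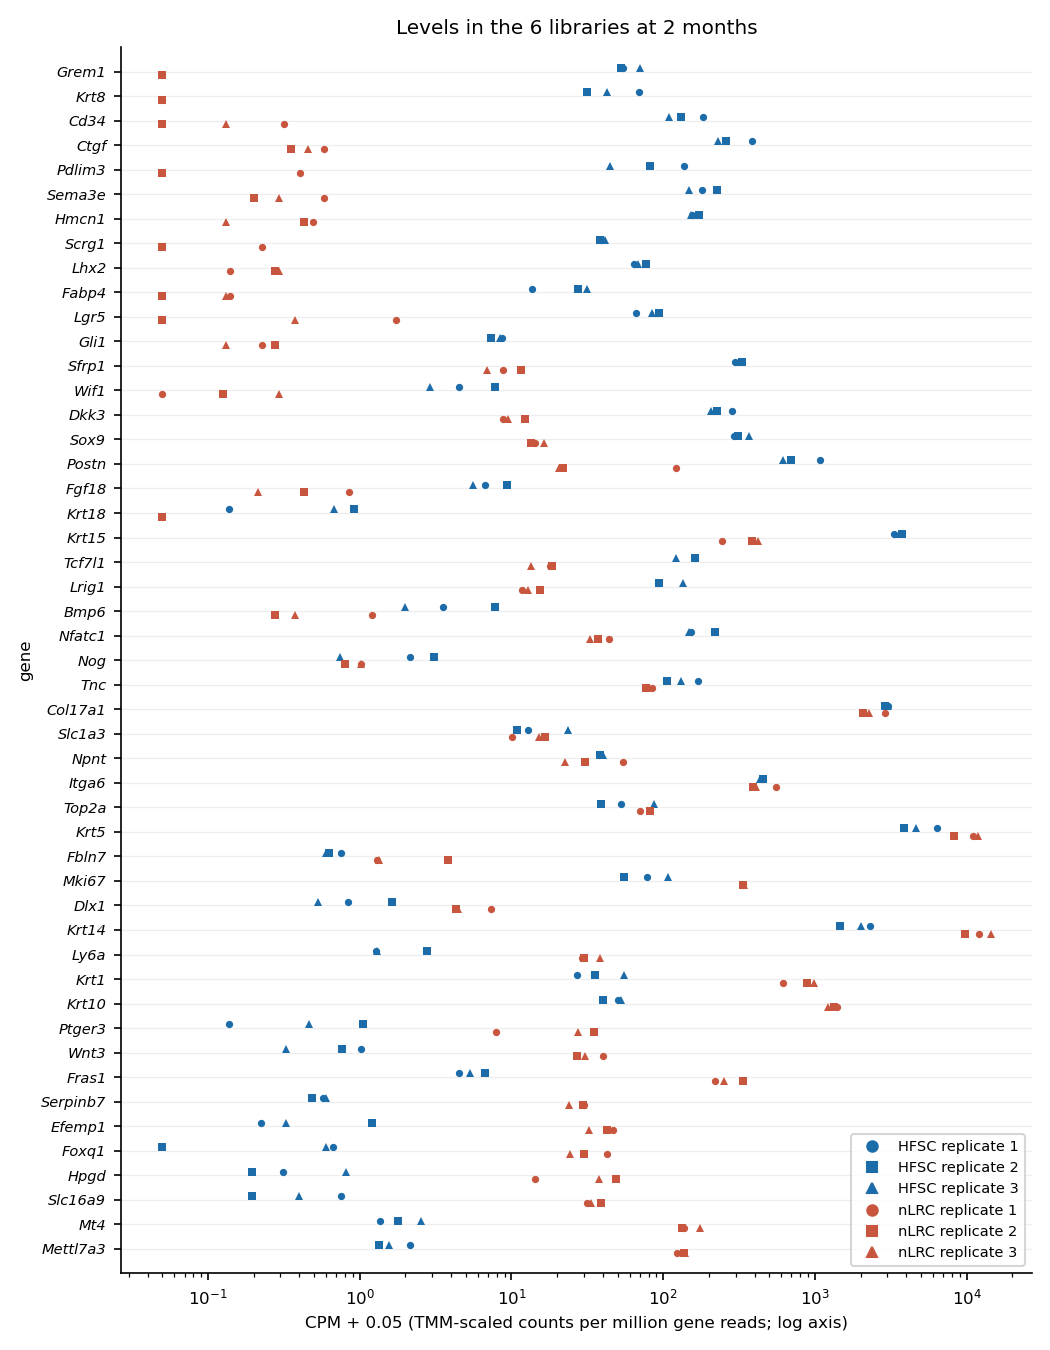
CPM plus 0.05 on a log axis for genes named in the text, ordered by log2 fold change, with one symbol per replicate and one colour per cell type. Grem1, Krt8 and Krt18 sit at the left edge in all 3 nLRC libraries, where they had 0 reads, and Krt18 was too low to test. Itga6, Npnt, Slc1a3, Nog, Col17a1 and Top2a overlap or nearly meet between groups.

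Grem1 and Krt8, among the highest-ranked genes, had no read in nLRC at all. The 10 named as highest were those with the largest log2 fold change among genes called higher with an average log2 CPM of at least 3. Grem1, a secreted BMP antagonist (chr2:113746164-113758646, minus strand), was at 54.3, 52.9 and 70.5 CPM in HFSC and at 0, 0 and 0 in nLRC. Against a floor of 3 reads per library it was at least 242-fold higher (adjusted p = 1.86e-06). Krt8, a keratin of simple epithelia (chr15:101996698-102004482, minus strand), was at 68.8, 31.3 and 42.8 CPM against 0, 0 and 0, at least 194-fold higher (adjusted p = 2.97e-05). Krt18, another keratin of simple epithelia, was too low to test, at 0.0875, 0.862 and 0.622 CPM in HFSC against 0, 0 and 0. Krt8 also marks Merkel cells, the touch receptors of the skin. Of the 9 Merkel cell markers listed, Krt20, Atoh1, Isl1 and Sox2 were at 3 reads or fewer in every library, Atoh1 and Sox2 at 0. Ctgf, a matricellular protein and textbook target of YAP and TEAD, was at 382, 259 and 231 CPM against 0.532, 0.301 and 0.406 (log2 fold change 9.44 ± 0.34, adjusted p = 4.09e-07). Sema3e, a secreted guidance cue, was at 181, 227 and 148 CPM against 0.532, 0.15 and 0.243 (log2 fold change 9.22 ± 0.34, adjusted p = 4.09e-07). Hmcn1, the very large extracellular protein hemicentin, was at 154, 172 and 152 CPM against 0.443, 0.376 and 0.0811 (log2 fold change 9.01 ± 0.30, adjusted p = 2.91e-07).

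Each of those 3 had a few reads in every nLRC library and the groups were separated by orders of magnitude. Pdlim3, an actin-binding adaptor, was at 136, 82.4 and 44.8 CPM in HFSC and 0.354, 0 and 0 in nLRC, where it had 4 reads in all. Its ratio was 779.9 (95% exact counting interval 304 to 2865), with adjusted p = 8.1e-05. Scrg1, a small secreted protein, was at 38.8, 38.1 and 41.3 CPM against 0.177, 0 and 0 (2 nLRC reads), a ratio of 734 (95% exact counting interval 203 to 6066), with adjusted p = 1.2e-06. Fabp4, a fatty-acid binding protein of adipocytes and capillary endothelium, was at 13.6, 27.5 and 31.2 CPM against 0.0886, 0 and 0.0811 (2 nLRC reads), a ratio of 448 (95% exact counting interval 124 to 3706), with adjusted p = 9.01e-06. Endothelial marker sums, in nLRC mostly Pecam1, were 104 to 273 CPM in HFSC and 20.2 to 26.3 in nLRC. The part of endothelial RNA in the Fabp4 result was not tested. Lhx2 and Cd34, described above, complete the 10.

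The main keratins stood in a different order in the 2 cell types. Per length of transcript (TPM, exon reads per base of transcript scaled to one total, mean ± SD of 3 libraries), Krt15 in HFSC, at 4946 ± 1623 TPM, reached the range of Krt5 at 5303 ± 260.2 TPM and lay above Krt14 at 2578 ± 172 TPM. With Krt10 and Krt1 added, the order among these in nLRC began with Krt14 at 15393 ± 389 TPM, Krt5 at 10545 ± 848 TPM and Krt10 at 1450.5 ± 356 TPM. Krt1 at 777 ± 209 TPM and Krt15 at 447 ± 139 TPM followed. Krt15, the basal keratin most used to mark the bulge (chr11:100131758-100135928, minus strand), was at 3341, 3724 and 3607 CPM in HFSC and 245, 386 and 421 in nLRC (log2 fold change 3.34 ± 0.29, adjusted p = 4.2e-05). Krt14 (chr11:100203162-100207548, minus strand) ran the other way, at 2304, 1455 and 2024 CPM against 12019.7, 9776 and 14382 (log2 fold change -2.65 ± 0.34, adjusted p = 0.000401). Its partner Krt5 was at 6425, 3882 and 4662 CPM against 11063, 8272 and 11888, not overlapping but much closer (log2 fold change -1.06 ± 0.33, adjusted p = 0.0429). The Krt5 call was lost when any one library other than HFSC replicate 1 was left out, with adjusted p from 0.0563 to 0.153.

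The keratins of simple epithelia and of the companion layer rose for 6 of 9 tested members and fell for 1. Krt17, a keratin of the follicle and of activated keratinocytes, was at 1098, 655 and 1117 CPM against 67.6, 25.8 and 67.7 (log2 fold change 4.16 ± 0.42, adjusted p = 0.000107). Krt75, of the companion layer, was at 111, 96.3 and 129 CPM against 14.4, 5.79 and 6.41 (log2 fold change 3.67 ± 0.34, adjusted p = 7.23e-05). Krt6a, also of the companion layer, was at 606, 528 and 704 CPM against 91.7, 55.7 and 129 (log2 fold change 2.73 ± 0.30, adjusted p = 0.000171). All 3 were higher in every HFSC library. Krt14, Krt16 and Krt17, and likewise the Krt6 genes, are near-identical over stretches, and how reads were divided among them is not known.

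Genes of epidermal differentiation were low in HFSC. Of 28 tested members of the interscale differentiation list, 16 fell, 2 rose and 10 did not pass, with a median log2 fold change of -1.72. Krt10 (chr11:99385254-99389364, minus strand), the acidic keratin of suprabasal cells, was at 50.3, 40.2 and 52.4 CPM in HFSC and 1393, 1344 and 1211 in nLRC (log2 fold change -4.78 ± 0.23, adjusted p = 1.2e-06). Its partner Krt1 was at 26.9, 35.5 and 55.1 CPM against 619, 887 and 984 (log2 fold change -4.40 ± 0.33, adjusted p = 1.42e-05), and Krt2, of the upper spinous layer, at 36.6, 11.4 and 23.3 CPM against 993, 734 and 401 (log2 fold change -4.89 ± 0.50, adjusted p = 0.000186). These 3 keratins were lower in every HFSC library. Among genes of the cornified envelope and granules, 5 of 10 fell. Casp14, the caspase of cornification, was at 0.612, 0.144 and 0.553 CPM against 16.1, 15.3 and 18.7 (log2 fold change -5.10 ± 0.35, adjusted p = 8.39e-06). Tgm3, a transglutaminase that cross-links the envelope, was at 9.62, 7.91 and 4.49 CPM against 156, 125 and 118 (log2 fold change -4.19 ± 0.28, adjusted p = 6.9e-06). Calm4, a calcium-binding protein of differentiating keratinocytes, was at 8.57, 9.49 and 13.1 CPM against 180.4, 219 and 296 (log2 fold change -4.47 ± 0.26, adjusted p = 3.06e-06). The 2 members that rose, named after their values were seen, were Spink5, a protease inhibitor of the upper epidermis and follicle (667, 469 and 214 CPM against 16, 21.9 and 23.3, adjusted p = 8.1e-05), and Sbsn, suprabasin (146, 146 and 145 against 108, 85 and 64.8, adjusted p = 0.0183).

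Desmosomal and transcriptional parts of the same programme fell as well. Dsc1, a desmocollin of upper layers, was at 4.9, 3.16 and 5.8 CPM in HFSC and 50.9, 59.1 and 59.2 in nLRC (log2 fold change -3.57 ± 0.22, adjusted p = 4.87e-06). Grhl3, a Grainyhead factor of barrier formation, was at 2.89, 2.87 and 4.91 CPM against 28.4, 25 and 25.2 (log2 fold change -2.85 ± 0.25, adjusted p = 3.84e-05), and Ovol1, a zinc-finger factor of keratinocyte exit from the cycle, at 3.59, 2.44 and 5.04 CPM against 46.6, 19.2 and 29.8 (log2 fold change -3.06 ± 0.37, adjusted p = 0.000343). Of the adhesion genes 4 of 6 fell, and of the transcription factors 4 of 9.

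The interfollicular basal list was mixed, with 8 of 16 members lower, 1 higher and 7 not passing. Efemp1, the extracellular protein fibulin-3 (chr11:28853204-28926743, plus strand), had the lowest log2 fold change of the named genes, at 0.175, 1.15 and 0.276 CPM in HFSC against 47, 42.5 and 32.5 in nLRC (log2 fold change -6.49 ± 0.44, adjusted p = 8.69e-06). Mt4, the metallothionein of stratified epithelia, was at 1.31, 1.72 and 2.49 CPM against 137, 132 and 174 (log2 fold change -6.28 ± 0.26, adjusted p = 5.39e-07). The member that rose was Thbs1, a matricellular thrombospondin, at 509, 431 and 634 CPM against 30.9, 11.2 and 12.6 (log2 fold change 4.85 ± 0.42, adjusted p = 5.05e-05). Col17a1, a hemidesmosomal collagen known to support stem cells of follicle and epidermis, was at 3032, 2914 and 3018 CPM against 2903, 2081 and 2279 and did not pass (adjusted p = 0.429). Of 3 scale keratins tested, Krt84 and Krt36 fell. Both calls were lost when any nLRC library or HFSC replicate 2 was left out, with adjusted p from 0.0511 to 0.0848 for Krt84 and from 0.0556 to 0.0689 for Krt36. Sebaceous markers fell for 4 of 9 tested and rose for none. With a term for the replicate number 6 fell and 1 rose, against 16.3% and 17.7% of all genes. Scd1, a fatty-acid desaturase abundant in sebocytes, was at 28.3, 30.5 and 55.8 CPM against 209, 166 and 339.8 (log2 fold change -2.63 ± 0.34, adjusted p = 0.0006).

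Markers of the zone between bulge and epidermis went both ways, 3 of 9 higher and 3 lower (13.6% and 9.82% of all genes tested). Lrig1, an EGF receptor inhibitor that marks the junctional zone, was at 92.9, 93.6 and 135 CPM in HFSC and 11.7, 15.4 and 12.7 in nLRC (log2 fold change 3.01 ± 0.20, adjusted p = 7.69e-06). Gli1, a Hedgehog target that marks the upper bulge, was at 8.57, 7.33 and 8.29 CPM against 0.177, 0.226 and 0.0811 (log2 fold change 5.55 ± 0.42, adjusted p = 1.66e-05). Ly6a, the surface protein Sca-1 of the infundibulum and epidermis, was at 1.22, 2.73 and 1.24 CPM against 29.2, 30.2 and 38.1 (log2 fold change -4.31 ± 0.31, adjusted p = 1.11e-05). Sostdc1 was the third called higher. The others called lower, named after their values were seen, were follicular too. Krt79, a keratin of the infundibulum, was at 17.3, 9.92 and 23.3 CPM against 36.1, 45.4 and 64.1 (adjusted p = 0.00743). Lgr6, a stem cell marker of the isthmus, was at 8.14, 10.8 and 8.22 CPM against 24, 19.9 and 12.2 (adjusted p = 0.0195). The Lgr6 call was lost in the fit of all 24 libraries and when nLRC replicate 1 or 2 or HFSC replicate 1 or 3 was left out (adjusted p 0.0594 to 0.286).

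The 10 genes named as lowest in HFSC, by the same rule, included Efemp1 and Mt4. Slc16a9, a monocarboxylate transporter, was at 0.7, 0.144 and 0.345 CPM against 31.6, 38.9 and 33.4 (log2 fold change -6.32 ± 0.33, adjusted p = 1.86e-06). Mettl7a3, a methyltransferase-like gene with close paralogues, was at 2.1, 1.29 and 1.52 CPM against 123, 137 and 139.7 (log2 fold change -6.31 ± 0.21, adjusted p = 2.9e-07). Hpgd, the enzyme that inactivates prostaglandins, was at 0.262, 0.144 and 0.76 CPM against 14.2, 49.1 and 37.7 (log2 fold change -6.21 ± 0.63, adjusted p = 0.000163), and Ptger3, a prostaglandin E2 receptor, at 0.0875, 1.01 and 0.415 CPM against 7.8, 35 and 27.3 (log2 fold change -5.70 ± 0.76, adjusted p = 0.00101). Both prostaglandin genes were lowest in nLRC replicate 1 and still above every HFSC library there. Foxq1, a forkhead factor of the hair shaft, was at 0.612, 0 and 0.553 CPM against 42.7, 29.9 and 24.2 (log2 fold change -6.14 ± 0.47, adjusted p = 1.79e-05). Serpinb7, a keratinocyte protease inhibitor, was at 0.525, 0.431 and 0.553 CPM against 29.9, 29.6 and 23.9 (log2 fold change -5.73 ± 0.26, adjusted p = 8.2e-07). Wnt3 and Fras1, described below, complete the set. Of 175 genes followed by name, 91 overlap another annotated gene, 39 of them on the same strand. Cd34, Lhx2, Lgr5, Tcf7l1, Nfatc1, Krt8, Krt10, Sema3e, Hmcn1, Slc16a9, Hpgd, Foxq1, Serpinb7, Fras1, Col4a1 and Col4a2 are among the 91. The strand setting of the counting is not given, so reads of a gene and of its overlapping neighbour cannot be told apart. Cd34 aside, none of the highest and lowest genes lost its call in those of the 15 other settings that tested it. The setting with at least 10 reads in every library left out most of them, such as Grem1, Krt8 and Lhx2, so it could not test their calls.

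The promoters of genes far lower or far higher in HFSC were searched for the letters of known binding sites. The 250 bases upstream of the first listed RefSeq start of each gene (GRCm38.p6) were searched on both strands for TGANTCA, the AP-1 letters, and TATAAA, the TATA letters. The AP-1 letters were present in 25 of 251 promoters (9.96%) of genes at least 4-fold lower, in 20 of 555 (3.60%) of genes at least 4-fold higher, in 4.21% of 9963 tested genes and in 6.87% of all 27025 promoters. The TATA letters were present in 15.9% of the first group, 7.93% of the second, 6.05% of tested genes and 13.0% of all promoters. Over all 1013 promoters of genes called lower the AP-1 and TATA shares were 6.515 and 8.49%, and over all 1385 of genes called higher 4.26 and 6.715%. All 4 lay below the shares among all promoters and above those among tested genes, from which the called genes come. No test was run on these shares, and a match is a description and not a binding site. The letters TAATTA (LHX) were in 3.59% of the first group and 1.98% of the second, AACAAT (SOX) in 6.77 and 7.03%, CTTTGA (TCF/LEF) in 11.9 and 10.6%, and CATTCC (TEAD) in 14.3 and 11.2%. Among all promoters these 4 were in 4.90, 9.65, 14.0 and 12.6%, and among tested genes in 2.29, 5.01, 10.6 and 10.3%. The promoters of Efemp1, Serpinb7 and Krt10, genes that fell, are shown because they hold AP-1 or TATA letters, with all matched letters in capitals, 5′ to 3′ on the gene's strand, ending at the base before the start. In Efemp1 (chr11:28852955-28853204, plus strand) the capitals mark AP-1 letters. In Serpinb7 (chr1:107422439-107422688, plus strand) they mark, in order, TATA letters in reverse, TCF/LEF letters, AP-1 letters and TATA letters in reverse. In Krt10 (chr11:99389365-99389614, minus strand) they mark TATA letters.
Efemp1: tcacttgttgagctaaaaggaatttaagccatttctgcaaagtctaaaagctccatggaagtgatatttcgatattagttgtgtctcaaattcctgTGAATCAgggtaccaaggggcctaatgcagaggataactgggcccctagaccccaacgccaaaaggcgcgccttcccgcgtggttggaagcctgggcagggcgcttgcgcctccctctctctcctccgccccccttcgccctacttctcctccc
Serpinb7: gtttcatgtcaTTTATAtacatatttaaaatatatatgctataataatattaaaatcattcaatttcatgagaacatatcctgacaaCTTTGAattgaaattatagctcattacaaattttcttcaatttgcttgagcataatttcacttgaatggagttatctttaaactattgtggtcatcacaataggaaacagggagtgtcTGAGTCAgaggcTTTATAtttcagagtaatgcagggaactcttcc
Krt10: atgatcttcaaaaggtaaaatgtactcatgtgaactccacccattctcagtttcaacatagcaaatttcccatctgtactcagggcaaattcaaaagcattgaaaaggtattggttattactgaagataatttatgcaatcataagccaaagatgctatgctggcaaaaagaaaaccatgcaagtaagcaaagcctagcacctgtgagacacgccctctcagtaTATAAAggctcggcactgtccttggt

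Wnt ligands were mostly lower in HFSC, while several Wnt receptors and inhibitors were higher. Of 12 ligands tested, 7 fell and 2 rose. Wnt3 (chr11:103774150-103817957, plus strand), a canonical ligand of the epidermis, was at 0.962, 0.719 and 0.276 CPM in HFSC and 40.3, 26.8 and 30.3 in nLRC (log2 fold change -5.68 ± 0.37, adjusted p = 5.95e-06). Wnt4, an autocrine ligand of basal epidermal cells, was at 39, 36.2 and 39.1 CPM against 131, 128 and 133 (log2 fold change -1.78 ± 0.13, adjusted p = 1.44e-05). Wnt3a, another canonical ligand, was at 0.962, 1.44 and 0.898 CPM against 23.1, 16.9 and 10.2 (log2 fold change -3.97 ± 0.38, adjusted p = 6.63e-05), with 37.6% of its gene reads in exons. Axin2, a general target of canonical Wnt signals, was at 5.86, 9.34 and 6.43 CPM against 38.8, 22.9 and 20.9 (log2 fold change -1.95 ± 0.29, adjusted p = 0.00105). These 4 were higher in every nLRC library. The other ligands called lower were Wnt7a, Wnt10a, Wnt10b and Wnt16, and those called higher were Wnt5b and Wnt9a.

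Of 17 Wnt receptors 8 rose and 4 fell. Fzd7 was at 124, 121 and 99.5 CPM in HFSC and 11.4, 8.95 and 8.93 in nLRC (log2 fold change 3.56 ± 0.18, adjusted p = 1.38e-06), and Fzd10 ran opposite, at 2.01, 1.72 and 2.69 CPM against 35, 35.7 and 43.7 (log2 fold change -4.11 ± 0.23, adjusted p = 2.32e-06). Frizzled proteins are the receptors that bind Wnt ligands. Secreted inhibitors rose for 4 of 8 tested and fell for none. With a term for the replicate number 5 rose and 1 fell, against 17.7% and 16.3% of all genes. Sfrp1, a decoy that binds Wnt ligands, was at 295, 330.5 and 323 CPM against 8.68, 11.4 and 6.9 (log2 fold change 5.13 ± 0.23, adjusted p = 8.2e-07). Dkk3, a Dickkopf family protein, was at 284, 226 and 207 CPM against 8.68, 12.3 and 9.41 (log2 fold change 4.56 ± 0.22, adjusted p = 1.09e-06). Wif1, another decoy, was low in both, at 4.46, 7.76 and 2.83 CPM against 0, 0.0752 and 0.243 with 4 nLRC reads, a ratio of 41 (95% exact counting interval 15.7 to 152), with adjusted p = 0.000786. Over all 47 Wnt genes tested, 17 rose and 14 fell, with a median of 0.20.

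In the BMP and TGF-beta list 20 of 51 tested genes rose and 3 fell, with a median log2 fold change of 0.48. With a term for the replicate number 26 rose and 7 fell, against 17.7% and 16.3% of all genes. Without HFSC replicate 2 15 rose and 5 fell, in a fit that called 1534 of 14284 genes higher and 931 lower. Antagonists and latent TGF-beta binding proteins made up 8 of the 20, led by Grem1. Ltbp2, which sits on elastic microfibrils, was at 156, 154 and 129 CPM in HFSC and 0.62, 0.451 and 0.568 in nLRC (log2 fold change 8.04 ± 0.22, adjusted p = 1.92e-07). Ltbp1, which tethers latent TGF-beta to the matrix, was at 37.2, 59.4 and 43.9 CPM against 6.2, 7.07 and 5.11 (log2 fold change 2.93 ± 0.23, adjusted p = 1.87e-05). Sostdc1, an inhibitor of both BMP and Wnt signals, was at 83.4, 131 and 165 CPM against 32.3, 37.6 and 44.1 (log2 fold change 1.73 ± 0.25, adjusted p = 0.000836). These proteins act outside the cell, and all 4 were higher in every HFSC library. Among ligands 4 of 12 rose, including Inhbb, the activin beta-B subunit, at 30.8, 30 and 69.1 CPM against 3.63, 1.81 and 1.95 (log2 fold change 4.15 ± 0.42, adjusted p = 0.00015). Of 11 receptors 2 rose and 1 fell, near the 13.6% and 9.82% of all genes tested, and 1 rose without HFSC replicate 2. One that rose was Eng, an endothelial co-receptor, at 6.74, 27.6 and 17.3 CPM against 0, 0.527 and 0.243, and it was highest in HFSC replicate 2, where the endothelial sum was also highest (273 CPM). The part of endothelial RNA in the Eng result was not tested. Among intracellular targets, Id2 was at 119.7, 81.4 and 106 CPM against 27.7, 24.8 and 33.7 (log2 fold change 1.84 ± 0.19, adjusted p = 0.000104) and Id4 at 45.6, 30 and 26 CPM against 4.96, 1.88 and 2.11 (log2 fold change 3.52 ± 0.39, adjusted p = 0.000195). Id genes are direct BMP targets that block basic helix-loop-helix factors. Msx2, another BMP target, was lower in HFSC, at 2.19, 5.17 and 3.73 CPM against 15.5, 16.3 and 21.7 (log2 fold change -2.30 ± 0.31, adjusted p = 0.000573). Noggin (Nog), a BMP antagonist, was low in both, at 2.1, 3.02 and 0.691 CPM against 0.975, 0.752 and 0.974, and did not pass (adjusted p = 0.237).

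FGF signalling genes were higher for 10 of 18 tested and lower for 3. Fgf18, a ligand of the resting bulge, was at 6.65, 9.34 and 5.53 CPM in HFSC and 0.797, 0.376 and 0.162 in nLRC (log2 fold change 3.99 ± 0.51, adjusted p = 0.000428). Fgf1, another ligand, was at 116, 98.9 and 82.3 CPM against 3.19, 3.76 and 1.95 (log2 fold change 5.05 ± 0.26, adjusted p = 1.66e-06), although 36.8% of its gene reads lay in exons. Fgfr1, a receptor, was at 227, 286 and 197 CPM against 20.7, 17.6 and 12.1 (log2 fold change 3.82 ± 0.25, adjusted p = 5.65e-06). All 3 were higher in every HFSC library. Dusp6, a phosphatase that acts on ERK and is induced by it, was at 43.9, 37.1 and 69.6 CPM against 13.1, 7.07 and 6.49 (log2 fold change 2.51 ± 0.33, adjusted p = 0.000573). Spry4, a feedback inhibitor, was at 12.5, 8.19 and 11.1 CPM against 0.354, 0.15 and 0.0811 with 7 nLRC reads, a ratio of 57.8 (95% exact counting interval 27.7 to 145), with adjusted p = 2.11e-05. Fgfbp1, which releases FGF from the matrix, was at 11.1, 5.17 and 5.46 CPM against 156, 111 and 138, lower in HFSC (log2 fold change -4.20 ± 0.30, adjusted p = 1.32e-05).

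EGF family genes were split, 4 of 14 higher and 4 lower (13.6% and 9.82% of all genes tested). Lrig3, a relative of Lrig1, was at 99.2, 145 and 118 CPM in HFSC and 37.1, 65.1 and 55.4 in nLRC (log2 fold change 1.20 ± 0.23, adjusted p = 0.00419). Erbb3, a receptor for neuregulins, was at 27.7, 21 and 21 CPM against 55, 37.5 and 39.8 (log2 fold change -0.92 ± 0.20, adjusted p = 0.00871). Of 15 Notch genes 3 rose and 4 fell (13.6% and 9.82% of all genes tested). Without HFSC replicate 2 the counts were 1 and 2, in a fit that called 1534 of 14284 genes higher and 931 lower. Lfng, a glycosyltransferase that tunes Notch receptors, was at 70.9, 62.7 and 57.6 CPM against 22.9, 23.1 and 26.7 (log2 fold change 1.40 ± 0.15, adjusted p = 0.00015), and Notch3, a receptor, was at 10.4, 5.32 and 16 CPM against 38.5, 31.9 and 33.8 (log2 fold change -1.68 ± 0.32, adjusted p = 0.00488).

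Hedgehog receptors, co-receptors and effectors were higher in HFSC for 8 of 11 tested and lower for 1, with a median of 1.34. With a term for the replicate number 9 rose and 2 fell, against 17.7% and 16.3% of all genes. Gli3, the transcription factor that represses targets when the ligand is absent, was at 233, 343 and 246 CPM in HFSC and 75.8, 98.5 and 61.9 in nLRC (log2 fold change 1.80 ± 0.23, adjusted p = 0.000396), with 36.5% of its gene reads in exons. Cdon, a co-receptor, was at 131, 153 and 121 CPM against 49.9, 67.2 and 44 (log2 fold change 1.33 ± 0.19, adjusted p = 0.000827). With Gli1 above, these represent the receiving end of the pathway. The member that fell was Hhip, a decoy that binds the ligand, at 1.31, 2.16 and 0.415 CPM against 35.1, 23.1 and 21.1 (log2 fold change -4.49 ± 0.45, adjusted p = 0.000115). The 3 ligands Shh, Ihh and Dhh were too low to test. In the Hippo list 7 of 13 rose and none fell (13.6% and 9.82% of all genes tested). Those that rose included Ctgf, the YAP partner Tead4 (15.8, 25 and 19.7 CPM against 7.53, 8.73 and 6.33, adjusted p = 0.00184) and Lats2, a kinase that restrains YAP (51.7, 45.7 and 37.3 against 25.1, 19.7 and 17.8, adjusted p = 0.00249).

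**Figure D4:**
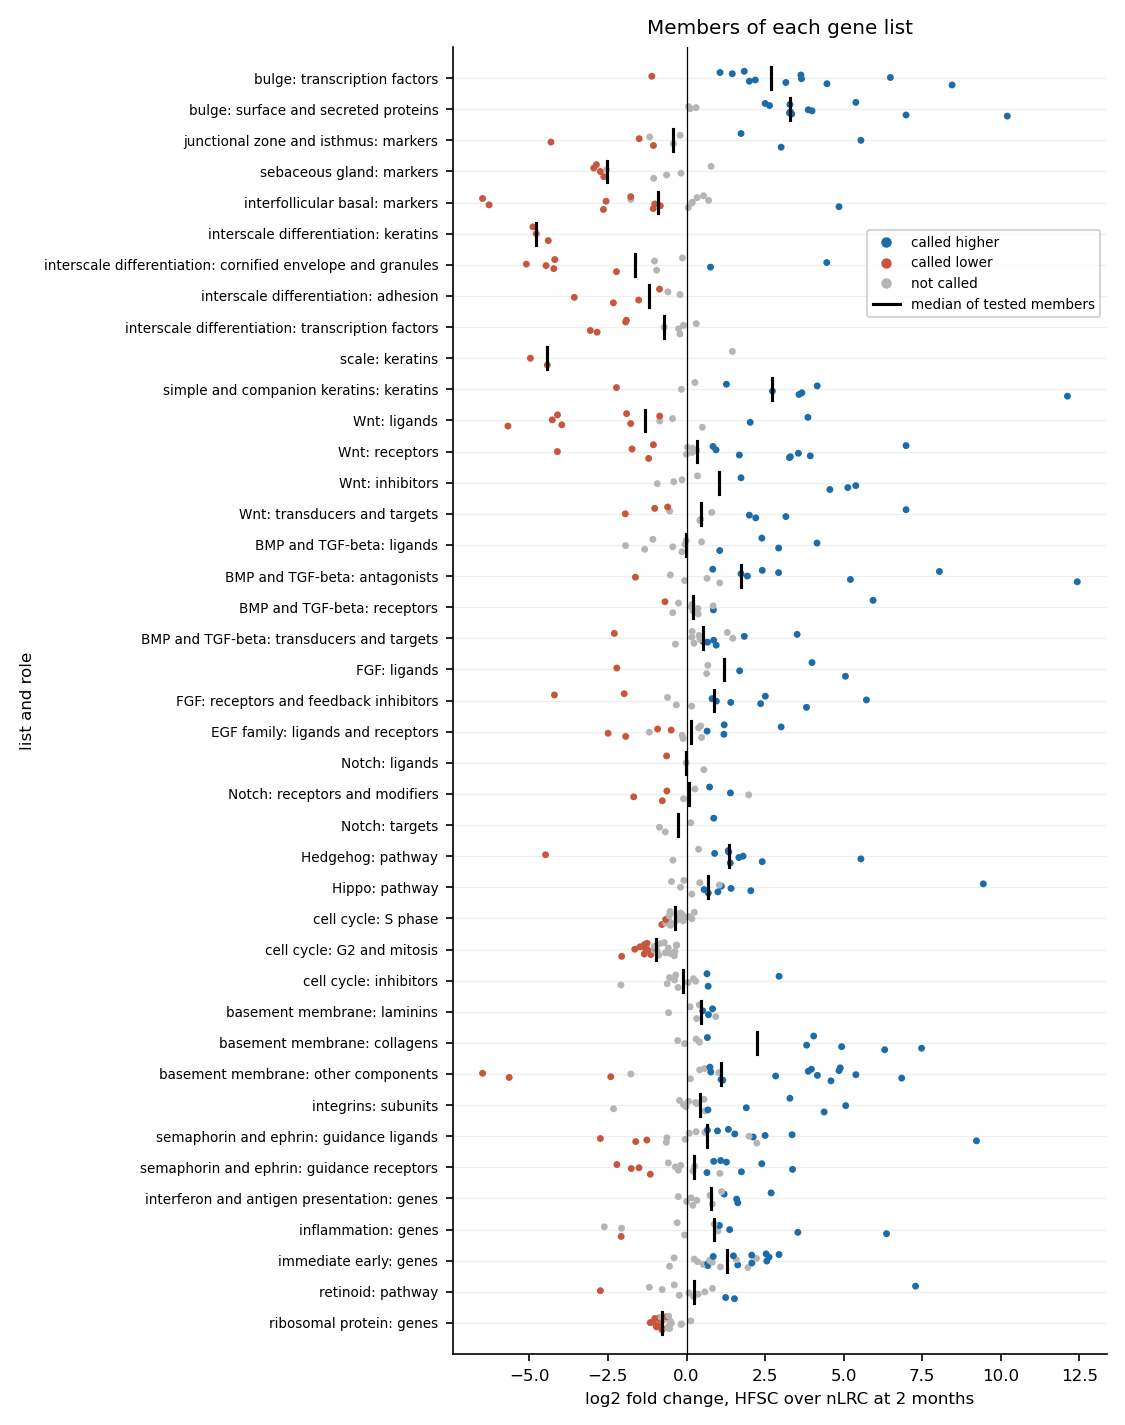
Log2 fold change of HFSC over nLRC for every tested member of the gene lists, grouped by list and role, with the median of each group as a bar. Bulge factors other than Gata3 and most collagens lie right of 0, differentiation keratins and Wnt ligands lie mostly left, and the points beyond 12 (Grem1 and Krt8) are fits to genes with 0 nLRC reads.

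Genes of the dividing cell were lower in HFSC. Of 24 genes of G2 and mitosis 10 fell and none rose, with a median log2 fold change of -0.97. Of 20 S-phase genes 2 fell and none rose, a share near the 9.82% of all genes tested that were lower. Mki67, the Ki-67 antigen of cycling cells, was at 78.7, 54.9 and 107 CPM in HFSC and 336, 333 and 341 in nLRC (log2 fold change -2.07 ± 0.24, adjusted p = 0.000214). The 3 nLRC libraries were nearly equal and the 3 HFSC libraries lay well below them. Cenpe, a kinetochore motor, was at 9.54, 7.19 and 14.4 CPM against 20.6, 30.6 and 47.5 (log2 fold change -1.65 ± 0.34, adjusted p = 0.00742), and Racgap1, of the cleavage furrow, at 8.4, 10.2 and 16.6 CPM against 26.2, 22.3 and 36.3 (log2 fold change -1.26 ± 0.28, adjusted p = 0.0109). Top2a, a topoisomerase of S phase and mitosis, overlapped, at 52.7, 39.1 and 86.5 CPM against 70.6, 82.3 and 81.5, and did not pass (adjusted p = 0.315). It passed when HFSC replicate 3 was left out (adjusted p = 0.0287). Without HFSC replicate 2, 4 G2 and mitosis genes and 0 S-phase genes were called lower, against 931 of all 14284 genes. With a term for the replicate number 18 and 5 were, in a fit that called 16.3% of all genes lower. The nLRC were defined as cells that had lost the histone label, so division is close to what the sort selected.

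Ribosomal protein genes were lower in HFSC by a small step. Of 24 tested, 13 fell and none rose, with a median of -0.78. Rplp0, of the ribosomal stalk, was at 636, 417 and 589 CPM in HFSC and 1243, 993 and 1421 in nLRC (log2 fold change -1.16 ± 0.25, adjusted p = 0.00812), and Rplp1 at 322, 217 and 272 CPM against 615, 465 and 640.4 (log2 fold change -1.09 ± 0.22, adjusted p = 0.00598). HFSC replicate 2 was the lowest library for both. Without it 5 were called lower, in a fit that called 931 of 14284 genes lower. With a term for the replicate number 20 were, against 16.3% of all genes. Of 12 cell cycle inhibitors 3 rose, none fell and 9 did not pass (13.6% rose and 9.82% fell of all genes tested), with a median of -0.11. With a term for the replicate number 3 rose and 2 fell, against 17.7% and 16.3% of all genes. Btg2, an antiproliferative gene among the 3, was higher in HFSC, at 63.5, 33.6 and 69 CPM against 10.8, 3.61 and 7.38 (log2 fold change 2.94 ± 0.41, adjusted p = 0.00103).

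Basement membrane genes were mostly higher in HFSC, 22 of 39 tested, with 3 lower. Collagens of the membrane rose for 6 of 10, with a median of 2.24. Col4a1 was at 56.8, 60.8 and 91.5 CPM in HFSC and 1.24, 0.527 and 0.893 in nLRC (log2 fold change 6.30 ± 0.32, adjusted p = 1.69e-06), and its partner chain Col4a2 at 96, 100.5 and 128 CPM against 0.443, 0.451 and 0.893 (log2 fold change 7.48 ± 0.28, adjusted p = 4.09e-07). Col4a4, of the alternative network, was at 25.2, 26.6 and 29.4 CPM against 1.51, 2.71 and 1.46 (log2 fold change 3.82 ± 0.27, adjusted p = 9.76e-06). Endothelial cells also make type IV collagen. In HFSC replicates 1, 2 and 3 the endothelial sum was 104, 273 and 185 CPM and the fibroblast sum 32.2, 77.9 and 73.6 CPM. Col4a1 and Col4a2 were lowest in replicate 1 and highest in replicate 3. The part of endothelial and fibroblast RNA in these results was not tested. Laminins were higher for 3 of 8, among them Lamb3, of laminin-332 (525, 451 and 409.5 CPM against 247, 249 and 286, adjusted p = 0.00906). The genes that fell were Efemp1 and a pair of the Fraser complex, which anchors epidermis to dermis. Fras1 (chr5:96373955-96784728, plus strand) was at 4.46, 6.61 and 5.25 CPM against 220.1, 335 and 252 (log2 fold change -5.64 ± 0.25, adjusted p = 8.2e-07), and Frem2 at 15, 19.4 and 14.8 CPM against 91.7, 74.7 and 93.9 (log2 fold change -2.41 ± 0.17, adjusted p = 1.2e-05). Npnt, nephronectin, a bulge matrix protein that attracts arrector muscle cells, overlapped between groups, at 38, 38.5 and 40 CPM against 54.7, 30.2 and 22.3 (adjusted p = 0.806).

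Integrins, the receptors for that matrix, rose for 5 of 14 and fell for none (13.6% and 9.82% of all genes tested). Itga5, of the fibronectin receptor, was at 20.4, 23.9 and 24 CPM in HFSC and 4.78, 6.54 and 6.9 in nLRC (log2 fold change 1.90 ± 0.21, adjusted p = 0.000152). Itga8, the nephronectin receptor, was at 8.05, 8.62 and 12 CPM against 0.797, 0.0752 and 0 with 10 nLRC reads, a ratio of 36.5 (95% exact counting interval 19.6 to 76.8), with adjusted p = 0.00111.

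Guidance cues and their receptors were divided between the 2 cell types, 15 of 37 higher in HFSC and 7 lower. Efnb2, an ephrin, was at 208, 239.8 and 173 CPM in HFSC and 70.4, 105 and 71.6 in nLRC (log2 fold change 1.33 ± 0.21, adjusted p = 0.00139). Sema4d, a semaphorin, was at 2.01, 3.31 and 4.7 CPM against 29.8, 21.2 and 17 (log2 fold change -2.74 ± 0.33, adjusted p = 0.000313). Plxnd1, the receptor for Sema3e, was at 12.2, 31.8 and 28.1 CPM against 2.39, 2.48 and 2.03 (log2 fold change 3.37 ± 0.37, adjusted p = 0.000159), and it is also an endothelial gene. Ligand and receptor were thus both higher in HFSC libraries, with the endothelial part of Plxnd1 not tested. Epha4 was at 7.35, 9.92 and 13 CPM against 36, 61.1 and 44.2, lower in HFSC (log2 fold change -2.22 ± 0.26, adjusted p = 0.00027).

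Immune signals differed in a few genes. Of 11 inflammation genes tested 4 rose and 1 fell (13.6% and 9.82% of all genes tested). With a term for the replicate number 5 rose and 3 fell, against 17.7% and 16.3% of all genes. Cxcl14, a chemokine of skin epithelium, was at 1077, 579 and 630.2 CPM in HFSC and 79.8, 56.3 and 60.5 in nLRC (log2 fold change 3.54 ± 0.30, adjusted p = 3.01e-05). Il33, an alarmin of keratinocytes, was at 2.62, 2.73 and 3.39 CPM against 16.8, 7.37 and 13.2, lower in HFSC (log2 fold change -2.08 ± 0.33, adjusted p = 0.0017). Cxcl12, a chemokine of stromal and endothelial cells, was at 28.8, 31.3 and 42.5 CPM against 0.532, 0.602 and 0.0811 (log2 fold change 6.36 ± 0.41, adjusted p = 5.45e-06). The fibroblast and endothelial sums were both higher in HFSC, and their part in the Cxcl12 result was not tested. Interferon and antigen presentation genes rose for 4 of 12 and fell for none, including Tap1, which carries peptides for class I presentation (30.2, 16.5 and 24.5 CPM against 11.9, 8.12 and 11.3, adjusted p = 0.0078).

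Immediate early genes, which cells switch on within minutes of a stimulus, rose for 11 of 22 and fell for none, with a median of 1.28. Without HFSC replicate 2, 8 rose, in a fit that called 1534 of 14284 genes higher. Socs3, a cytokine feedback inhibitor, was at 28.7, 13.9 and 22.6 CPM in HFSC and 6.56, 2.03 and 2.84 in nLRC (log2 fold change 2.53 ± 0.43, adjusted p = 0.00277), and Zfp36, a protein that destabilises mRNA, at 21.6, 13.7 and 28.4 CPM against 9.13, 6.09 and 7.63 (log2 fold change 1.49 ± 0.28, adjusted p = 0.00444). Both were lowest among HFSC libraries in replicate 2 and still above every nLRC library. In the retinoid list 3 of 13 rose and 1 fell (13.6% and 9.82% of all genes tested). Lrat, which stores retinol as esters, was at 6.65, 19.5 and 41.8 CPM against 0, 0 and 0.406 with 5 nLRC reads, a ratio of 184 (95% exact counting interval 78.3 to 567), with adjusted p = 0.00257. It varied widely among the HFSC libraries. Rdh12, a retinal reductase, was at 1.66, 1.72 and 4.01 CPM against 14.8, 18.4 and 18.3 (log2 fold change -2.74 ± 0.34, adjusted p = 0.000343).

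Genes of other cells were called too. All 9 endothelial markers tested rose in HFSC. Pecam1, an endothelial adhesion protein, was at 55.5, 71.4 and 64.5 CPM in HFSC and 20.7, 22.4 and 18.7 in nLRC, with 26.8% of its gene reads in exons. Emcn, an endothelial sialomucin, was at 2.8, 9.34 and 9.26 CPM against 0.0886, 0 and 0. Vim, of mesenchymal and endothelial cells, was at 17.8, 61.7 and 45.9 CPM against 0.886, 0.827 and 2.11 (log2 fold change 5.02 ± 0.56, adjusted p = 0.000332), and Col1a1, of fibroblasts, at 11.6, 6.61 and 16.2 CPM against 0.0886, 0.15 and 0.0811 with 4 nLRC reads. Both were higher in all 3 HFSC libraries. Mbp, a myelin gene, was higher in nLRC, at 4.29, 2.01 and 3.32 CPM against 50.9, 37.2 and 28.6 (log2 fold change -3.56 ± 0.31, adjusted p = 3.65e-05), with 35.2% of its gene reads in exons.

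The contrast between the 2 cell types was smaller in the libraries of 2-year-old mice. At that age 3 libraries are labelled HFSC and 3 nLRC, from mice of the same strain, genotype and treatment, and the difference was tested as an interaction in a fit of all 12 libraries. Of 15301 genes tested, the HFSC-nLRC difference changed with age for 1001 (6.54%), 614 downward (4.01%) and 387 upward (2.53%). Within the same fit edgeR called 2484 genes (16.2%) between cell types at 2 months and 0 (0.0%) at 2 years. At 2 years 1216 genes had an unadjusted p under 0.05 and the smallest adjusted p was 0.261. No other tool was run on that contrast. Over all 15301 genes, with no choice of genes, the median size of the log2 difference, whatever its sign, was 0.45 in young and 0.31 in old mice, with a 90th percentile of 2.04 and 1.04. These sizes include noise and were not tested.

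Most bulge markers described here were lower in the libraries labelled HFSC at 2 years than at 2 months, and higher in those labelled nLRC. Cd34 was at 9.84, 12.6 and 9.37 CPM in them and 5.4, 6.25 and 7.19 CPM in nLRC of that age, on the scale of the 12 libraries. Lhx2 was at 23.2, 11.4 and 17.8 CPM against 6.75, 4.65 and 9.02, with an interaction (the log2 fold change at 2 years minus that at 2 months, ± SE) of -7.06 ± 0.52, adjusted p = 4.72e-07. The order of the cell types was kept for both, with all 3 HFSC libraries above all 3 nLRC libraries. Krt15 was at 571, 892 and 664 CPM against 658, 901 and 542, overlapping (interaction -3.29 ± 0.38, adjusted p = 3.64e-05). Sox9 was at 103, 92.1 and 143 CPM against 102, 78.1 and 91.5 (interaction -4.12 ± 0.28, adjusted p = 2.24e-07). The 2 cell types overlapped in both genes at 2 years. From 2 months to 2 years the mean of Sox9 went from 333 ± 42.1 to 113 ± 27 CPM (SD, n = 3) in HFSC and from 15.4 ± 1.88 to 90.6 ± 12 CPM in nLRC. Nfatc1 went from 177 ± 41.1 to 109.98 ± 9.69 CPM in HFSC and from 39.7 ± 5.03 to 104 ± 9.3 CPM in nLRC. Foxc1 stayed within a narrow range in HFSC, at 25.1 ± 3.21 and 21.8 ± 0.476 CPM, while in nLRC it was at 2.02 ± 0.126 and then 15.3 ± 4.57 CPM (interaction -3.12 ± 0.36, adjusted p = 4.06e-05). Both cell types thus enter the interactions. The change with age within a cell type was not tested here. Cd34 and Lhx2, and Efemp1 below, were ranked highest or lowest in the 2-month libraries that enter the interaction test. The sign of their change is thus partly set by that choice.

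Epidermal genes were present in the libraries labelled HFSC at 2 years. Krt10 was at 2307, 1856 and 3392 CPM against 3244, 2297 and 3757 in nLRC, overlapping (interaction 4.51 ± 0.37, adjusted p = 1.9e-06). Efemp1 was at 15.4, 15.6 and 15.2 CPM against 8.95, 13.5 and 18.7 (interaction 6.64 ± 0.58, adjusted p = 2.65e-06). Mki67 was at 316, 170.4 and 164 CPM against 237, 204 and 191 (interaction 2.14 ± 0.37, adjusted p = 0.00148). Each was lower in all 3 HFSC libraries at 2 months and overlapped at 2 years. Krt14 was at 3763, 3181 and 5106 CPM against 7991, 4402 and 6356, with a log2 fold change of -0.64 ± 0.30 at 2 years, against -2.68 ± 0.31 at 2 months in the same fit.

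**Figure D5:**
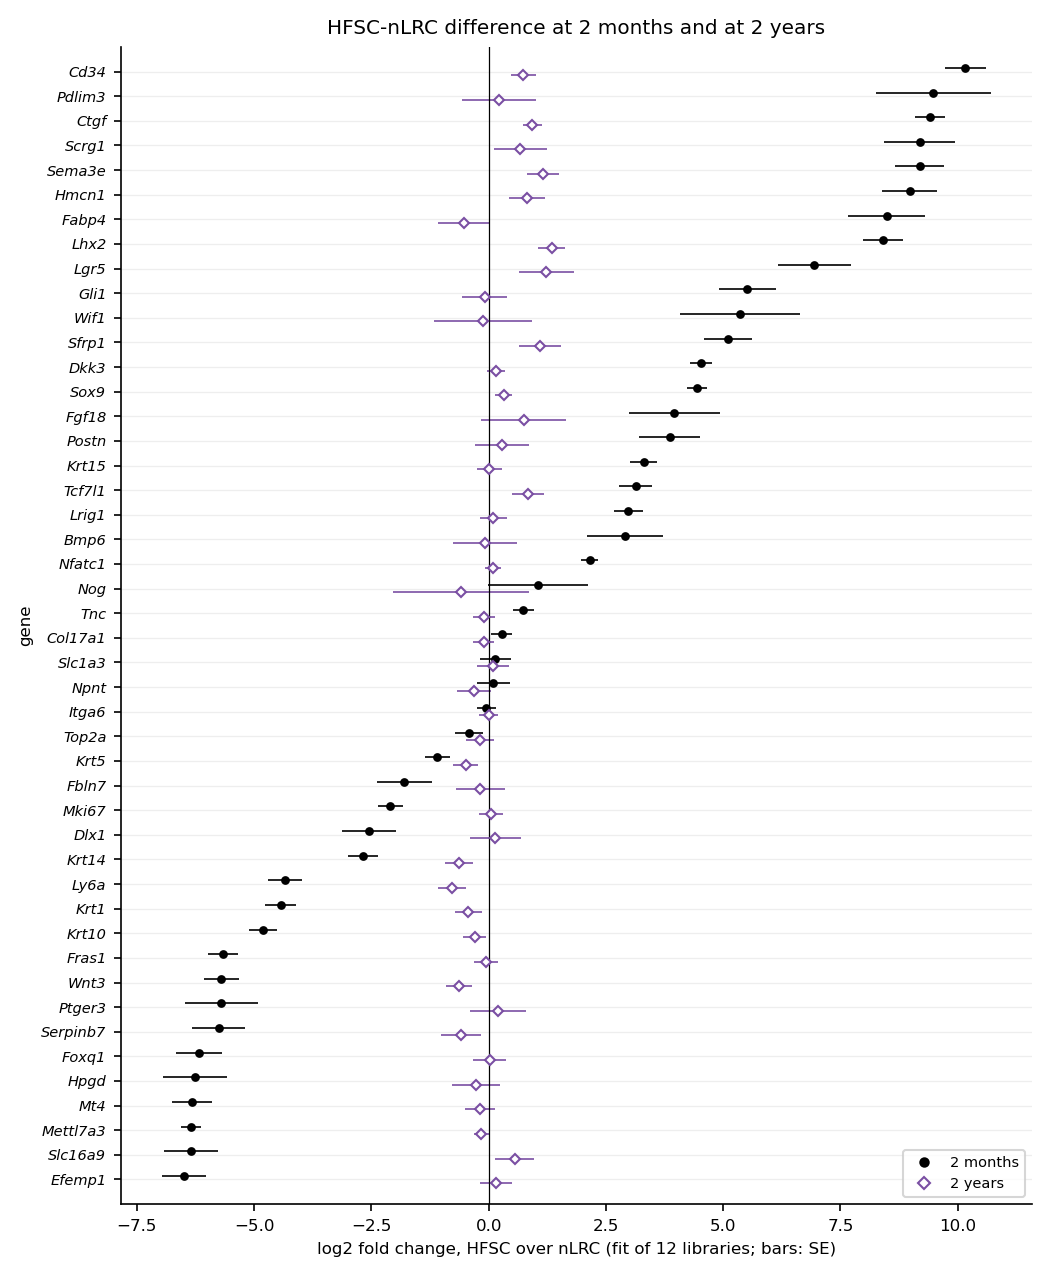
Log2 fold change of HFSC over nLRC (± SE) at 2 months (filled) and at 2 years (open) in the fit of 12 libraries, for genes named in the text. Filled points spread from Efemp1 at the bottom to Cd34 at the top and every open point lies closer to 0 than the extremes at 2 months. The genes are the panel, chosen with earlier results known, and those ranked highest or lowest at 2 months. The smaller spread at 2 years is thus partly set by that choice. Krt8 and Grem1 are left out because nLRC had 0 reads at 2 months.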

How the data were processed

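The 3 HFSC and 3 nLRC libraries at 2 months were analysed on the deposited count of gene reads, which covers exons and introns of 49585 genes. Per the submitters' processing notes the build was mm10. The aligner, the counter and its strand setting are not given in the sources used here, so reads of overlapping or antisense genes may be shared. The deposited files also hold RPKM values over exons, from which whole exon reads were recovered for 28738 of 28818 genes with an RPKM above 0 (tolerance 0.02). TPM values were used as deposited. GENCODE M21 coordinates matched 47096 genes by name. Counts were fitted with edgeR 4.0.16 in R 4.3.3 (filterByExpr, TMM factors, robust quasi-likelihood, Benjamini-Hochberg adjusted p under 0.05), a common biological coefficient of variation of 0.247 and 4 residual degrees of freedom. DESeq2 1.42.0 was an alternative. Replicate pairs of a group differed by 39.2 to 201 times sampling noise (chi-square per degree of freedom), so no library was a copy.

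Named genes were a panel of 34, the 10 highest and 10 lowest called log2 fold changes with an average log2 CPM of at least 3, and up to 4 called members per list role. The members and lists were chosen with earlier results of these data known. Same-numbered HFSC and nLRC libraries deviated together (correlations 0.187, 0.256 and 0.424 of deviations from the group means, each above 0.1). HFSC replicate 2 and nLRC replicate 1, of unlike number, also lay above 0.1 (0.114). The numbers may be pairs on this evidence from the data alone, since the labels name no shared mouse or day. The main fits had no term for the replicate number, so the p-values printed for single genes ignore any pairing. The fit with the replicate block is an alternative, printed beside counts that it moved by over 1.5 times. Intervals and floors of 3 reads cover counting error only. For read ratios the 95% interval is exact.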

Additional observations from a re-analysis of the deposited data

Results flagged for a closer look

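The genes here showed an HFSC-nLRC difference that changed between 2 months and 2 years by the interaction test of the 12-library edgeR fit, each with an adjusted p under 0.05. Values are the log2 fold change at 2 years minus that at 2 months, so a negative value means a difference that was lower at 2 years. Bulge and follicle genes had negative values: Cd34 -9.43, Lgr5 -5.72, Lhx2 -7.06, Sox9 -4.12, Tcf7l1 -2.30, Nfatc1 -2.07, Krt15 -3.29, Lrig1 -2.88 and Gli1 -5.60. Secreted signalling and matrix genes followed, with Dkk3 at -4.37, Sfrp1 at -4.01, Postn at -3.57, Sema3e at -8.03, Hmcn1 at -8.16 and Ctgf at -8.47. Pdlim3 was at -9.26, Scrg1 at -8.52 and Fabp4 at -9.02. Cd34 may be part of the sort, so its value is a description. In the first library set alone the calls of Lgr5, Tcf7l1, Sfrp1, Postn, Pdlim3, Krt14 and Ptger3 were lost, with adjusted p from 0.0656 to 0.207. The Postn call was also lost when any HFSC library or any 2-year nLRC library was left out, with adjusted p from 0.0509 to 0.0808. For Krt8 and Grem1, with 0 nLRC reads at 2 months, the values were -7.53 or lower and -6.14 or lower.

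Epidermal and dividing-cell genes had positive values. Keratins were at 2.04 for Krt14, 4.00 for Krt1 and 4.51 for Krt10, and Ly6a was at 3.55 and Mki67 at 2.14. The genes lowest in HFSC at 2 months were at 6.64 for Efemp1, 6.91 for Slc16a9, 6.19 for Mettl7a3, 6.13 for Mt4, 5.99 for Hpgd, 6.19 for Foxq1, 5.17 for Serpinb7, 5.90 for Ptger3, 5.08 for Wnt3 and 5.62 for Fras1. The genes ranked highest or lowest at 2 months were chosen from the 2-month libraries that enter this test, so the sign of their change is partly set by that choice.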

How the results depend on the processing

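Of 174 named genes at 2 months, 2550 values under 15 alternatives were compared with the reported ones: 2378 kept direction and side of the threshold, 161 fell below it, 3 rose past it and 8 changed sign. Over the 48 genes tested for a change with age the 981 values split 941, 16, 11 and 13. The count of 3238 genes at 2 months was 3233 with DESeq2's size factors in edgeR, 3551 with DESeq2, 4027 with no filter, 2434 with at least 10 reads, 3641 with a library set term and 3252 on exon reads. It was 1548 in a fit of all 24 libraries, 1714 in the first library set alone and 2361 to 2916 with one replicate left out. The replicate block gave 4699 (2448 higher, 2251 lower) and changed no named gene's call. The count of 1001 genes that changed with age was 1543 with no filter, 599 in the fit of all 24 libraries, 420 in the first library set alone, 1356 with the replicate block and 749 to 1034 with one replicate left out. The cause of these shifts was not tested. Sign changes were in uncalled genes near 0. At 2 months these were Itga6 (0.00623 with at least 10 reads, 0.0328 on exon reads), Npnt (-0.15 in the first library set) and Slc1a3 (-0.17 there). With one replicate left out they ranged from -0.12 to 0.15 for Itga6, from -0.13 to 0.56 for Npnt and from -0.24 to 0.38 for Slc1a3. For the change with age they were Itga6 (-0.00837 with at least 10 reads, -0.0677 on exon reads) and Slc1a3 (0.0493 with the set term, 0.51 in the first set). With one replicate left out these ranged from -0.14 to 0.15 for Itga6, from -0.25 to 0.37 for Slc1a3 and from -0.15 to 0.61 for Top2a. Genes with a few reads in one group limit the precision of the largest ratios.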
